A study of Homo sapiens with 24 samples.

Results

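The genes described here encode the cyclin-dependent kinase inhibitors (CDK inhibitors) and were taken by name. They are CDKN1A, CDKN1B, CDKN1C, CDKN2A, CDKN2B, CDKN2C, CDKN2D and CDKN3, 8 genes in all. Each was read from the probe set that the array annotation assigns to it alone and that had the highest mean over all arrays. Of the 8 genes, 7 had such a probe set, out of 18132 genes with one in the whole series, and CDKN2C is not analysed here because no probe set in the annotation used names it.

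CDK inhibitors are small proteins that hold back the kinases that drive the cell cycle. The CIP/KIP members, p21 (CDKN1A), p27 (CDKN1B) and p57 (CDKN1C), bind complexes of cyclin and kinase. The INK4 members, p16 (CDKN2A), p15 (CDKN2B), p18 (CDKN2C) and p19 (CDKN2D), bind the kinases CDK4 and CDK6 and keep D-type cyclins from activating them. CDKN3 belongs to neither family: it encodes a phosphatase that removes the activating phosphate from CDK2, and its RNA is known to be most abundant in dividing cells. In clear cell renal carcinoma the 9p21 region that holds CDKN2A and CDKN2B is a known site of loss.

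The samples were human renal cell carcinoma cell lines on Affymetrix PrimeView arrays, which read mainly the 3' end of transcripts. Groups were Caki-1 cells (a line from a skin metastasis) and 769-P cells (a line from a primary tumour), each under the vehicle DMSO or under 1 µM dasatinib, a drug that blocks ABL and SRC family kinases, for 6, 12 or 24 h. These are 8 groups of 3 arrays, 24 arrays in all, and each line stands for 1 tumour. Replicates carry the word biological in the labels, with nothing on how cultures were separated, and the labels give the DMSO arrays no time, so 1 DMSO group per line was the control at every time and hours of drug cannot be told apart from hours in culture.

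The values are deposited log2 signals, and changes are differences of log2 means ± SE with n = 3 arrays a group. Array medians lay between 6.01 and 6.08, arrays of a group correlated at 0.993 to 0.997 over probe sets, and the number of arrays limits the precision. A gene was tested in a line if its mean there lay above the 40th percentile of probe set means, a level of 5.38 for Caki-1 arrays and 5.36 for 769-P arrays, and it was called at an adjusted p under 0.05 (limma, Benjamini-Hochberg over all genes tested). Probe sets differ in affinity, so levels are compared between samples and not between genes. Of 9 renal epithelial markers on the array, 7 passed the filter in Caki-1 and 8 in 769-P, among them PAX8, PAX2, KRT8 and KRT18, while LRP2 passed in neither line. Of 5 leukocyte markers, 3 passed in Caki-1 (CD3E, CD14 and CD68) and 2 in 769-P (CD3E and CD68). Under DMSO the 5 averaged between 3.43 (PTPRC) and 8.004 (CD68) in Caki-1 and between 3.39 (PTPRC) and 8.62 (CD68) in 769-P.

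In the RefSeq annotation of GRCh38.p14, CDKN1A lies on chromosome 6 from 36676463 to 36687332, CDKN1B on chromosome 12 (12717368 to 12722369) and CDKN1C at 2883218 to 2885775 of chromosome 11, in the imprinted 11p15.5 region. CDKN2A and CDKN2B are neighbours on chromosome 9, at 21967752 to 21995324 and 22002903 to 22009313. CDKN2C lies on chromosome 1 from 50960745 to 50974634, CDKN2D on chromosome 19 from 10566460 to 10568979 and CDKN3 on chromosome 14 from 54397007 to 54420218. The 7 genes had between 1 probe set (CDKN2D) and 8 (CDKN3). The CDKN2A locus makes p16 and, from another reading frame, p14ARF, and the array values used here do not separate them.

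The RefSeq table of promoter windows (GRCh38.p14) held 10 windows for 7 of the 8 genes and none for CDKN1C. The 250 bases before the start of CDKN3, CDKN1B and CDKN2D are printed because these genes changed with different timing. CDKN3 was called first at 24 h in both lines and CDKN1B first at 6 h in both. CDKN2D was called first at 6 h in 769-P and only at 24 h in Caki-1. Capitals mark CCAAT boxes (CCAAT) and cell cycle homology region (CHR) elements (TTTGAA or TTCGAA), searched on both strands and read as ATTGG or TTCAAA where they lie on the opposite strand.
CDKN3, chr14:54396757-54397006, plus strand: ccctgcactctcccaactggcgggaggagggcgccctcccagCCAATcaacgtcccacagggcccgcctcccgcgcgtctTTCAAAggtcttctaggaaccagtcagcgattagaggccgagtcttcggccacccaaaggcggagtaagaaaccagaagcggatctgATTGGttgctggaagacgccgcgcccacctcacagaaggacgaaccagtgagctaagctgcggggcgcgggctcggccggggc
CDKN1B, chr12:12717118-12717367, plus strand: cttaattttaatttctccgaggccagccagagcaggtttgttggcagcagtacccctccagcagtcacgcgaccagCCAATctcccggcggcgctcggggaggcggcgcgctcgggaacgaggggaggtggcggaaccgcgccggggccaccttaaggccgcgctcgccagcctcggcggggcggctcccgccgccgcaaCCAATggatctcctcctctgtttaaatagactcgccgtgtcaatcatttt
CDKN2D, chr19:10568980-10569229, minus strand: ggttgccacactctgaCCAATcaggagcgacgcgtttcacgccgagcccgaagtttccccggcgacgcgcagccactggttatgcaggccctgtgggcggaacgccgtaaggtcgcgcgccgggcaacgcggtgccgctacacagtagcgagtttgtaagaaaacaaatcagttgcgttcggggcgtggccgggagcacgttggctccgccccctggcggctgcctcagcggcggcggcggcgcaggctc

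The CDKN3 window held 1 CHR element, which begins 170 bases before the start, and CCAAT boxes beginning 208 and 83 bases before it. CHR elements and CCAAT boxes are known as features of promoters of genes that peak late in the cell cycle. The CDKN1B window held CCAAT boxes at 174 and 50 bases and no CHR element, and the CDKN2D window held 1 CCAAT box at 234 bases and no CHR element. No window of these genes held the forkhead word GTAAACA or an E2F word (TTTCCCGC, TTTCGCGC, TTTGCCGC or TTTGGCGC). Of 35116 windows of this length, 14.3% held a CHR element, 32.0% a CCAAT box, 2.98% the forkhead word and 2.79% an E2F word. The words do not overlap each other in these 3 windows. The windows were chosen from the changes seen, and any part of these words in the timing was not tested.

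CDKN1C rose at every time in both lines, CDKN1B rose at every time but 24 h in 769-P, and CDKN1A rose by less, at all times in Caki-1 and at 24 h in 769-P. CDKN3 fell in both lines at 24 h and was called at no earlier time. The INK4 genes differed from each other: CDKN2D fell at 24 h in both lines and also at 6 and 12 h in 769-P, CDKN2B fell in 769-P at 6 h, and CDKN2A passed the test nowhere. In these bulk RNA samples, a change in the share of cells that express a gene and a change in RNA per cell cannot be told apart.

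In Caki-1, 6 of the 7 genes were tested, since CDKN2B lay under the filter. At 6 h, 3 rose (CDKN1A, CDKN1B and CDKN1C), where 12.3% of all genes rose, and none of the 6 fell, where 14% of all genes fell. At 12 h the same 3 genes rose, against 24.1% of all genes, and none fell, against 24.4% of all genes. At 24 h these 3 were again called higher, against 32.9% of all genes, and 2 fell (CDKN2D and CDKN3), against 29.9% of all genes. By limma's unadjusted p under 0.05 no further gene was added at 6, 12 or 24 h.

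In 769-P all 7 genes were tested. At 6 h, 2 rose (CDKN1B and CDKN1C), where 16.4% of all genes rose, and 2 fell (CDKN2B and CDKN2D), where 14.5% of all genes fell. At 12 h, 2 rose (CDKN1B and CDKN1C), against 24.9% of all genes, and 1 fell (CDKN2D), against 22.6% of all genes. At 24 h, 2 rose (CDKN1A and CDKN1C), against 31.1% of all genes, and 2 fell (CDKN2D and CDKN3), against 24.6% of all genes. The median change over the tested members at 24 h was 0.25 in Caki-1 and 0.11 in 769-P, beside 0.08 and 0.04 over all genes of these lines.

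**Figure D1:**
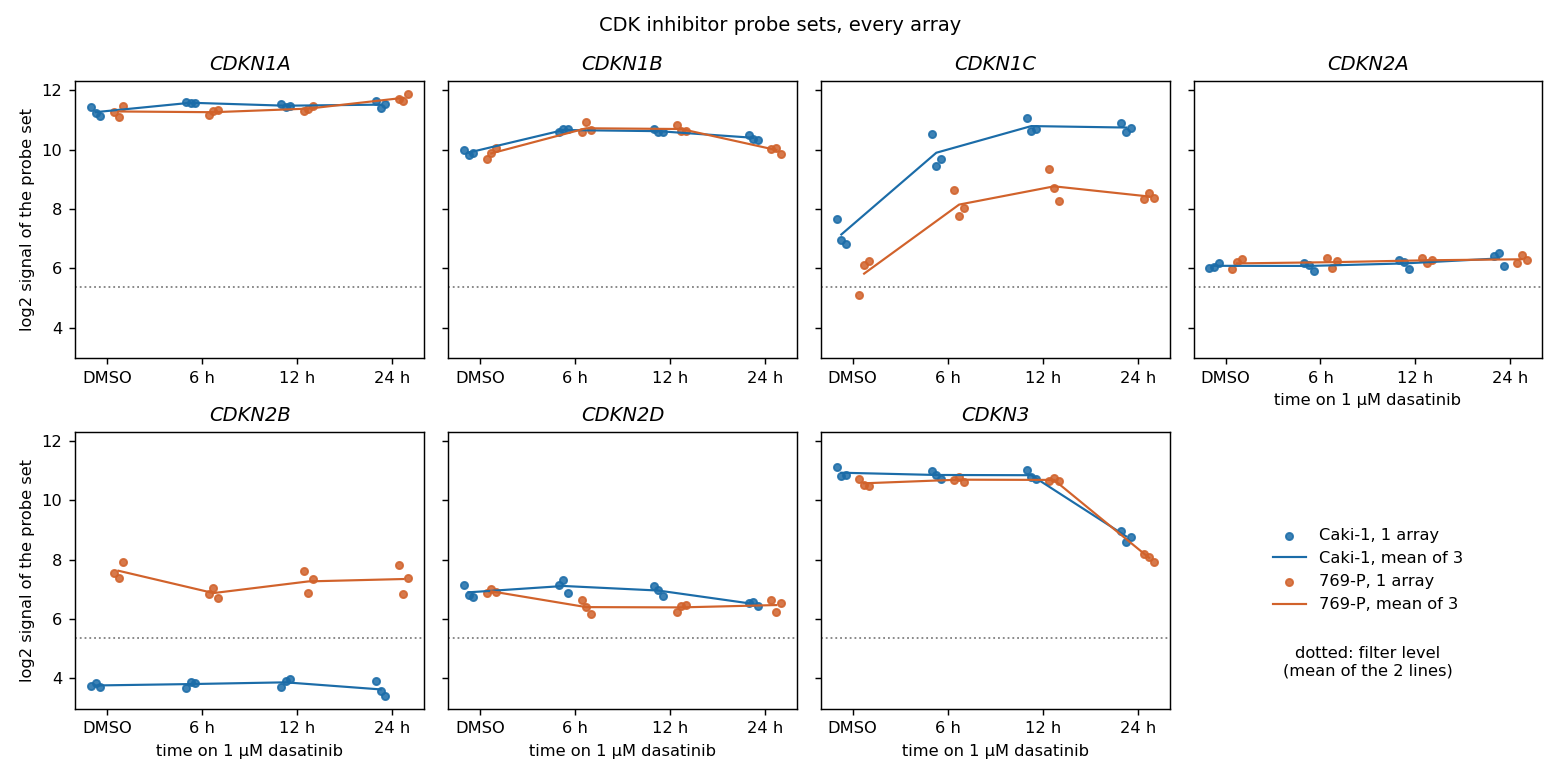
Log2 signal of the 7 measured CDK inhibitors on every array (points) with group means joined (lines, n = 3), for Caki-1 and 769-P under DMSO and after 6, 12 and 24 h on 1 µM dasatinib. The dotted line is the mean of the filter levels of the lines. CDKN1C stands above DMSO at each time in both lines, CDKN3 drops at 24 h to means of 8.79 in Caki-1 and 8.06 in 769-P, and CDKN2B in Caki-1 stays under the filter level.

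CDKN1C, which encodes p57, had the largest rise of the 7 genes at each time in both lines. In Caki-1 its signal was 7.65, 6.96 and 6.81 under DMSO, 10.55, 9.45 and 9.70 at 6 h, 11.06, 10.62 and 10.71 at 12 h and 10.90, 10.61 and 10.74 at 24 h. Every treated array lay above every DMSO array, and the arrays at 12 and 24 h overlapped each other. The changes against DMSO were 2.76 ± 0.24 at 6 h (6.76-fold, adjusted p = 1.38e-06), 3.66 ± 0.24 at 12 h (12.6-fold, adjusted p = 2.69e-08) and 3.61 ± 0.24 at 24 h (12.2-fold, adjusted p = 7.5e-09).

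In 769-P the CDKN1C signal was 5.11, 6.12 and 6.24 under DMSO, 8.65, 7.76 and 8.04 at 6 h, 9.34, 8.70 and 8.27 at 12 h and 8.35, 8.55 and 8.37 at 24 h. Treated and DMSO arrays again did not overlap, while arrays of the 3 treated times did. One DMSO array, at 5.11, lay under the filter level of its line, so the size of the rise rests on dim control values. The changes were 2.33 ± 0.29 at 6 h (5.02-fold, adjusted p = 1.65e-05), 2.94 ± 0.29 at 12 h (7.69-fold, adjusted p = 6.14e-07) and 2.60 ± 0.29 at 24 h (6.06-fold, adjusted p = 1.35e-06).

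The 3 probe sets of CDKN1C correlated at 0.97 to 0.99 over the 24 arrays. The signals were not centred in each line, so the difference between the lines enters these values. Their 24 h changes were 3.61, 3.39 and 3.11 in Caki-1, and 2.60, 2.10 and 1.31 in 769-P. All rose, and the size in 769-P depended on the probe set by more than its SE of 0.29. The largest change in each line came from the probe set used. That probe set carries the x suffix, which marks probes that can match other transcripts, and the others do not. In Caki-1, 4 of 5 fibroblast and smooth muscle markers passed the filter, and the mean of the 5 lay between 6.58 and 6.72 on the 24 h arrays, against 5.50 to 5.59 on the DMSO arrays. In 769-P that mean lay between 6.01 and 6.14 at 24 h, against 6.03 to 6.26 under DMSO. PDGFRA stayed under the filter in both lines. The mean of 5 endothelial markers lay between 5.42 and 5.72 at 24 h in Caki-1, against 5.10 to 5.20 under DMSO, and the mean of the renal epithelial markers lay between 8.85 and 8.93 at 24 h in 769-P, against 8.29 to 8.44 under DMSO. The part of these marker genes in the changes of CDKN1C and the other members was not tested.

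CDKN1B, which encodes p27, rose early and was lower again at 24 h. In Caki-1 its signal was 9.99, 9.82 and 9.89 under DMSO, 10.60, 10.70 and 10.70 at 6 h, 10.71, 10.59 and 10.59 at 12 h and 10.50, 10.37 and 10.34 at 24 h. All treated arrays lay above all DMSO arrays, those at 6 and 12 h overlapped, and those at 24 h lay between them and DMSO. The changes were 0.76 ± 0.07 at 6 h (1.70-fold, adjusted p = 1.52e-06), 0.72 ± 0.07 at 12 h (1.65-fold, adjusted p = 6.35e-07) and 0.50 ± 0.07 at 24 h (1.41-fold, adjusted p = 1.24e-05).

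In 769-P the CDKN1B signal was 9.69, 9.90 and 10.05 under DMSO, 10.60, 10.92 and 10.65 at 6 h, 10.82, 10.63 and 10.64 at 12 h and 10.03, 10.07 and 9.87 at 24 h. Arrays at 6 and 12 h stood above DMSO, and those at 24 h were within the range of the DMSO arrays apart from 1 array just above it. The changes were 0.85 ± 0.10 at 6 h (1.80-fold, adjusted p = 1.19e-05) and 0.82 ± 0.10 at 12 h (1.77-fold, adjusted p = 6.98e-06). At 24 h the difference was 0.11 ± 0.10 (95% interval -0.10 to 0.33) and did not pass the test (adjusted p = 0.383). The second probe set of CDKN1B gave 0.82, 0.59 and 0.42 at 6, 12 and 24 h in Caki-1 and 1.03, 1.01 and 0.02 in 769-P, so both probe sets had their highest value at 6 h and their lowest at 24 h in each line.

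CDKN1A, which encodes p21 and is a textbook target of p53, had small changes. In Caki-1 its signal was 11.44, 11.23 and 11.14 under DMSO, 11.60, 11.58 and 11.57 at 6 h, 11.54, 11.45 and 11.47 at 12 h and 11.63, 11.40 and 11.53 at 24 h. The 6 h arrays lay clear of DMSO, the 12 h arrays cleared the highest DMSO array only narrowly, and the 24 h arrays overlapped DMSO. The changes were 0.32 ± 0.07 at 6 h (adjusted p = 0.00482), 0.22 ± 0.07 at 12 h (adjusted p = 0.0235) and 0.25 ± 0.07 at 24 h (adjusted p = 0.00748), rises of 1.25-, 1.16- and 1.19-fold. The 12 h call was lost without DMSO replicate 2 or 3 or 12 h replicate 1 (adjusted p = 0.0779, 0.129 and 0.0646) and with the mean of both probe sets (0.16, adjusted p = 0.0641).

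In 769-P the CDKN1A signal was 11.29, 11.12 and 11.47 under DMSO, 11.16, 11.30 and 11.34 at 6 h, 11.29, 11.39 and 11.48 at 12 h and 11.70, 11.66 and 11.89 at 24 h. Only the 24 h arrays lay clear of DMSO. The change at 24 h was 0.46 ± 0.09 (1.38-fold, adjusted p = 0.000326), and the differences at 6 h (-0.02 ± 0.09, adjusted p = 0.879) and 12 h (0.10 ± 0.09, adjusted p = 0.413) did not pass. The second probe set of CDKN1A gave 0.14 at 24 h in Caki-1 and 0.34 in 769-P.

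CDKN2D, which encodes p19 of the INK4 family, was called lower at 24 h in Caki-1 and at all 3 times in 769-P. In Caki-1 its signal was 7.15, 6.80 and 6.74 under DMSO, 7.16, 7.32 and 6.87 at 6 h, 7.12, 6.99 and 6.77 at 12 h and 6.54, 6.56 and 6.43 at 24 h. Only the 24 h arrays lay apart from DMSO, all of them below it. The change there was -0.39 ± 0.14 (1.31-fold lower, adjusted p = 0.0212), while the differences at 6 h (0.21 ± 0.14, adjusted p = 0.294) and 12 h (0.06 ± 0.14, adjusted p = 0.742) did not pass. The 24 h call was lost without DMSO replicate 1 (-0.26, adjusted p = 0.108) or 24 h replicate 3 (-0.35, adjusted p = 0.0675).

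In 769-P the CDKN2D signal was 6.87, 7.02 and 6.91 under DMSO, 6.63, 6.40 and 6.18 at 6 h, 6.25, 6.44 and 6.49 at 12 h and 6.63, 6.24 and 6.54 at 24 h. All treated arrays lay below all DMSO arrays, and the treated times overlapped each other. It fell by 0.53 ± 0.13 at 6 h (1.45-fold, adjusted p = 0.00571), by 0.54 ± 0.13 at 12 h (1.46-fold, adjusted p = 0.00291) and by 0.46 ± 0.13 at 24 h (1.38-fold, adjusted p = 0.00692). CDKN2D has 1 probe set, so no second reading of it exists here.

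CDKN2B, which encodes p15, was measured above the filter only in 769-P. Its signal there was 7.55, 7.40 and 7.93 under DMSO, 6.85, 7.05 and 6.72 at 6 h, 7.61, 6.86 and 7.33 at 12 h and 7.81, 6.85 and 7.38 at 24 h. The 6 h arrays all lay below DMSO, and at 12 and 24 h replicate 2 was the low array and the groups overlapped DMSO. The change at 6 h was -0.75 ± 0.22 (1.68-fold lower, adjusted p = 0.0160), and the differences at 12 h (-0.36 ± 0.22, adjusted p = 0.206) and 24 h (-0.28 ± 0.22, adjusted p = 0.312) did not pass. Without DMSO replicate 3 (-0.60, adjusted p = 0.0727) or 6 h replicate 3 (-0.67, adjusted p = 0.0645) the 6 h call was lost.

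In Caki-1 the CDKN2B probe set ran from 3.40 to 3.96 over the 12 arrays, against a filter level of 5.38, and was not tested. Under DMSO it averaged 3.76 ± 0.08 (SD, n = 3), near the 9.75th percentile of all probe sets. The second probe set of CDKN2B read 3.68 in Caki-1 and 6.08 in 769-P under DMSO and gave -0.66 at 6 h in 769-P. The third probe set was dim in both lines, at 4.33 in Caki-1 and 4.38 in 769-P, and showed neither the difference between lines nor the 6 h change (0.06 in 769-P).

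The probe set used for CDKN2A lay near the middle of the array in both lines, and no comparison called it. The Caki-1 arrays read 6.02, 6.05 and 6.19 under DMSO, 6.20, 6.12 and 5.92 at 6 h, 6.30, 6.22 and 5.98 at 12 h and 6.41, 6.53 and 6.07 at 24 h. In 769-P they read 5.99, 6.20 and 6.32 under DMSO, 6.34, 6.03 and 6.26 at 6 h, 6.33, 6.19 and 6.29 at 12 h and 6.19, 6.45 and 6.28 at 24 h. All groups overlapped their DMSO group. The 24 h difference was 0.25 ± 0.13 in Caki-1 (95% interval -0.03 to 0.53, adjusted p = 0.109) and 0.14 ± 0.12 in 769-P (95% interval -0.12 to 0.39, adjusted p = 0.357). Without 24 h replicate 3 the Caki-1 value became 0.38 (adjusted p = 0.0180). The 3 probe sets of CDKN2A correlated at -0.03 to 0.48 with each other over the 24 arrays. Its dimmer probe sets read 5.35 and 4.92 in Caki-1 under DMSO, against a filter level of 5.38. In 769-P they read 5.40 and 5.03, against a level of 5.36, so the level of CDKN2A depends on the probe set.

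CDKN3, the CDK2 phosphatase, was called only at 24 h, when it fell in both lines. In Caki-1 its signal was 11.12, 10.82 and 10.85 under DMSO, 10.995, 10.84 and 10.73 at 6 h, 11.02, 10.79 and 10.74 at 12 h and 8.97, 8.61 and 8.77 at 24 h. In 769-P it was 10.73, 10.51 and 10.48 under DMSO, 10.69, 10.77 and 10.63 at 6 h, 10.67, 10.74 and 10.66 at 12 h and 8.18, 8.08 and 7.94 at 24 h. In both lines the 24 h arrays lay far below all others, which overlapped each other.

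At 24 h CDKN3 fell by 2.15 ± 0.11 in Caki-1 (4.43-fold, adjusted p = 4.82e-10) and fell by 2.51 ± 0.08 in 769-P (5.70-fold, adjusted p = 1.19e-12). The intervals of its 6 and 12 h differences reached from -0.32 to 0.16 in Caki-1 and from -0.06 to 0.30 in 769-P, and none passed the test. Of its 8 probe sets, 7 had 24 h changes between -2.65 and -2.07 in the 2 lines, and the eighth, at 5.54 in Caki-1 and 5.59 in 769-P under DMSO, gave 0.03 and -0.17. Most of these probe sets carry the x suffix, which marks probes that can match other transcripts, and they may share probes, so they are not 8 independent readings.

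**Figure D2:**
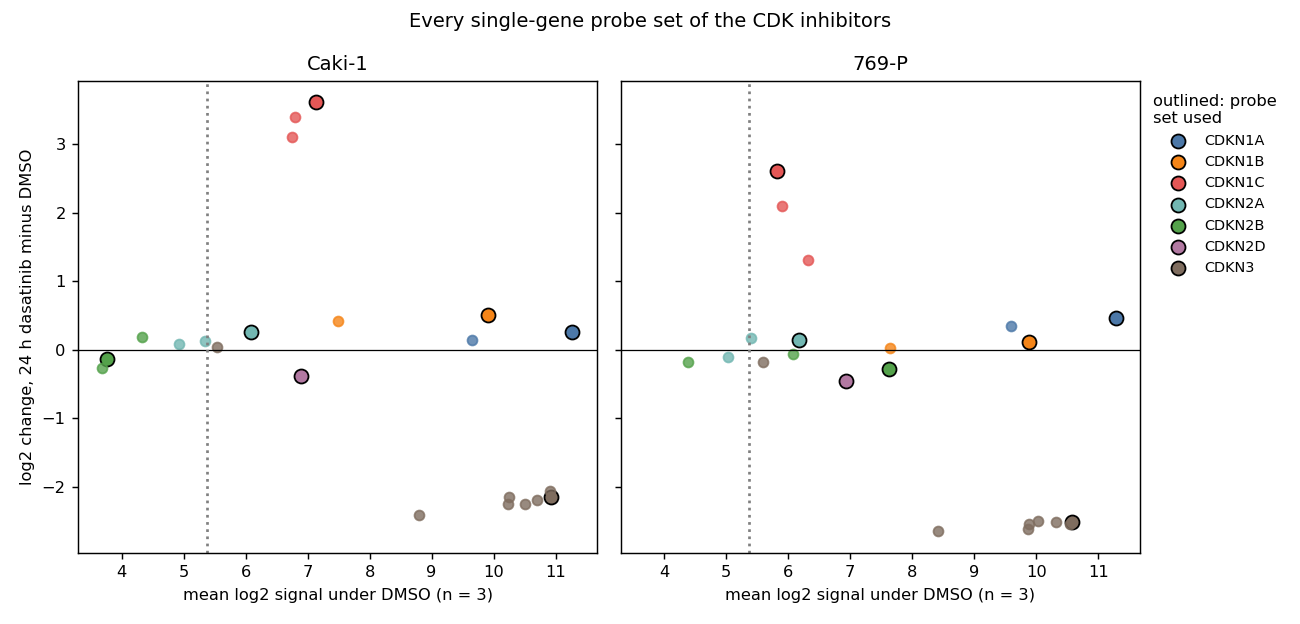
Change in log2 signal at 24 h of dasatinib against DMSO for every single-gene probe set of the 7 genes, plotted on its mean signal under DMSO (n = 3), for Caki-1 and 769-P, with the filter level dotted and the probe set used outlined. The 7 brighter CDKN3 probe sets lie between -2.07 and -2.65, and the 3 CDKN1C probe sets lie between 3.11 and 3.61 in Caki-1 and between 1.31 and 2.60 in 769-P.

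**Figure D3:**
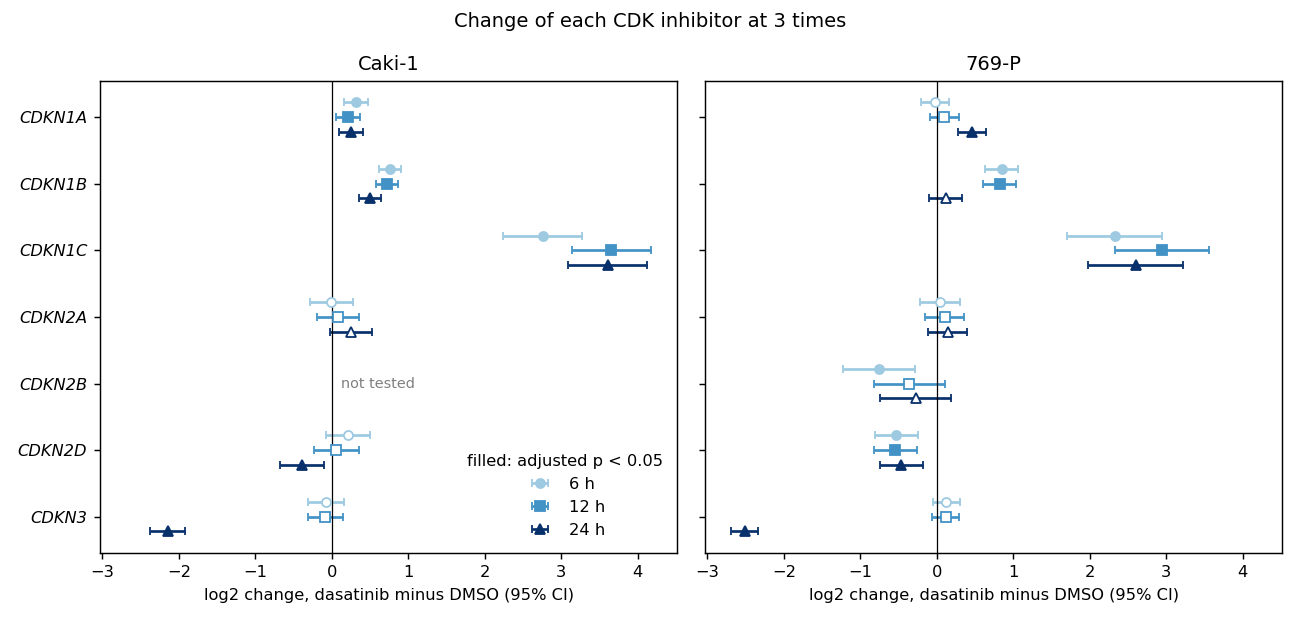
Log2 change of each gene at 6, 12 and 24 h of dasatinib against DMSO with 95% intervals from limma, in Caki-1 and 769-P (filled, adjusted p under 0.05). CDKN1C reaches 3.66 at 12 h in Caki-1 and 2.94 in 769-P, and CDKN3 is near 0 at 6 and 12 h and at -2.15 and -2.51 at 24 h.

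The times were also compared with each other. These differences are between treated groups, while the DMSO arrays share the fit and enter the SE. In Caki-1 from 6 to 12 h, 1 of the 6 tested genes was called, CDKN1C, higher at 12 h by 0.90 ± 0.24 (adjusted p = 0.0129), where 26.9% of all genes were called. That call was lost without 6 h replicate 2 or 3 (0.67, adjusted p = 0.0721, and 0.80, adjusted p = 0.0543). In Caki-1 at 24 h against 12 h, 3 of 6 were called, where 25.2% of all genes were called, and all 3 were lower at 24 h. CDKN3 fell by 2.06 ± 0.11 (adjusted p = 1.43e-08), CDKN2D by 0.45 ± 0.14 (adjusted p = 0.0250) and CDKN1B by 0.22 ± 0.07 (adjusted p = 0.0256). The CDKN1B step lost its call without 12 h replicate 1 or 24 h replicate 2 or 3, and the CDKN2D step without 12 h replicate 1 or 2 or 24 h replicate 3, with adjusted p between 0.0670 and 0.104 for these omissions.

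In 769-P at 12 h against 6 h limma called 0 of 7 genes, also at an unadjusted p under 0.05, where 19.1% of all genes were called. CDKN1C came nearest, higher at 12 h by 0.62 ± 0.29 (adjusted p = 0.167). At 24 h against 12 h, 3 of 7 were called, where 27.7% of all genes were called. CDKN3 fell by 2.62 ± 0.08 (adjusted p = 1.34e-12) and CDKN1B fell by 0.71 ± 0.10 (adjusted p = 9.32e-05), while CDKN1A rose by 0.36 ± 0.09 (adjusted p = 0.00605). These 3 calls in 769-P held when each of the 6 arrays at 12 and 24 h was left out in turn.

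The responses of the lines were compared directly, by subtracting the 769-P change from the one in Caki-1 in a fit over all 24 arrays. At 6 h, 1 of 7 genes was called, where 8.09% of all genes were called: CDKN2D, which had changed by 0.21 in Caki-1 and -0.53 in 769-P, a difference of 0.75 ± 0.20 (adjusted p = 0.0154). The CDKN1A difference of 0.34 ± 0.12 (adjusted p = 0.0909) did not pass, but did with the replicate number as a block (adjusted p = 0.0107). CDKN2B differed by 0.80 ± 0.28 and was not called. It lay under the filter in Caki-1 and entered this fit only through 769-P, where it is high, so no p is given. The CDKN1A difference also passed without Caki-1 DMSO replicate 1 (0.43, adjusted p = 0.0279) or 769-P DMSO replicate 2 (0.43, adjusted p = 0.0280). At 12 h, 1 of 7 was called, where 18.9% of all genes were called, again CDKN2D (0.06 in Caki-1, -0.54 in 769-P, difference 0.60 ± 0.20, adjusted p = 0.0323). Each CDKN2D call was lost when one of several single arrays was left out, 3 of them at 6 h (adjusted p up to 0.0612) and 6 at 12 h (adjusted p up to 0.0918). At 6 h these were Caki-1 DMSO replicate 3, Caki-1 6 h replicate 2 and 769-P 6 h replicate 3. At 12 h they were Caki-1 DMSO replicates 2 and 3, Caki-1 12 h replicates 1 and 2, 769-P DMSO replicate 2 and 769-P 12 h replicate 1.

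At 24 h, 2 of 7 were called, where 36% of all genes were called. CDKN1B was 0.50 above DMSO in Caki-1 and 0.11 in 769-P, a difference of 0.39 ± 0.13 (adjusted p = 0.0195), and CDKN3 stood at -2.15 against DMSO in Caki-1 and at -2.51 in 769-P, a difference of 0.36 ± 0.14 (adjusted p = 0.0484). The CDKN1B difference lost its call without Caki-1 DMSO replicate 2, Caki-1 24 h replicate 1, 769-P DMSO replicate 3 or 769-P 24 h replicate 3 (adjusted p = 0.0529 to 0.0695). The CDKN3 difference lost it in 12 of its 19 alternatives, 8 of them omissions of 1 array (adjusted p up to 0.142): Caki-1 DMSO replicate 2 or 3, Caki-1 24 h replicate 1 or 3, 769-P DMSO replicate 1 or 2, and 769-P 24 h replicate 2 or 3.

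For CDKN1C the 24 h change was 3.61 in Caki-1 and 2.60 in 769-P, a difference of 1.01 ± 0.42 with a 95% interval of 0.14 to 1.87 (adjusted p = 0.0644). It passed with the mean of its probe sets (1.36, adjusted p = 0.00286), and without Caki-1 DMSO replicate 1 (1.26, adjusted p = 0.0238) or 769-P DMSO replicate 1 (1.36, adjusted p = 0.00960). With the replicate number as a block it also passed (adjusted p = 0.0315). For CDKN2A the intervals of the difference reached from -0.42 to 0.48 over the 3 times.

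**Figure D4:**
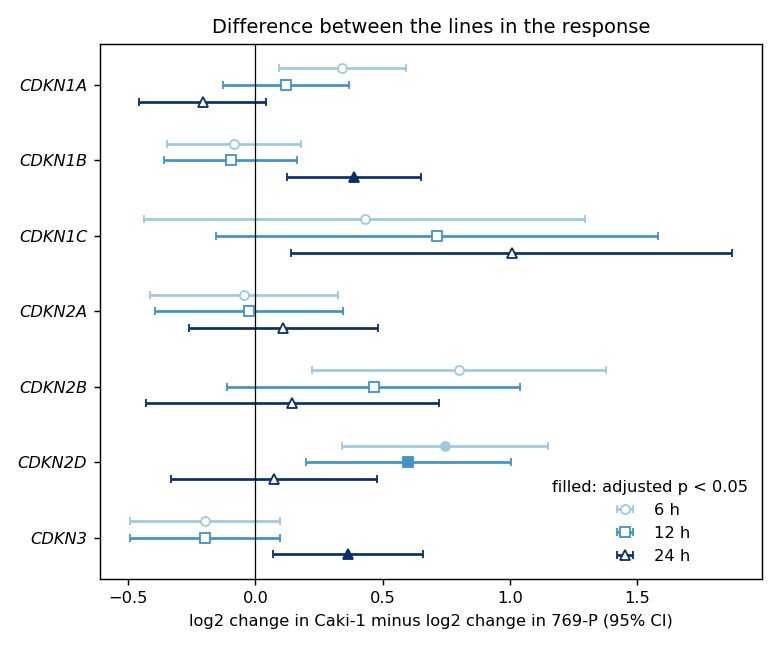
Log2 change in Caki-1 minus log2 change in 769-P for each gene at 6, 12 and 24 h of dasatinib, with 95% intervals from limma over 24 arrays (filled, adjusted p under 0.05). The filled points are CDKN2D at 6 and 12 h (0.75 and 0.60) and CDKN1B and CDKN3 at 24 h (0.39 and 0.36).

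Under DMSO 3 of the 7 genes were called between the lines, where 58.7% of all genes were called. Of these, CDKN2B entered the test only through 769-P, where it is high, so its call is tied to the filter. CDKN2B read 3.73, 3.85 and 3.70 in Caki-1, against 7.55, 7.40 and 7.93 in 769-P, a difference of -3.87 ± 0.20. The size of that difference rests on a Caki-1 signal under the filter, so no p is given. The mean of the 3 probe sets gave a difference of -2.11. CDKN1C averaged 7.14 ± 0.45 in Caki-1 and 5.82 ± 0.62 in 769-P (SD, n = 3 each), a difference of 1.32 ± 0.30 (adjusted p = 0.000460), and the mean of its 3 probe sets gave 0.88. CDKN3 averaged 10.93 ± 0.17 in Caki-1 and 10.58 ± 0.14 in 769-P (SD, n = 3 each), a difference of 0.36 ± 0.10 (adjusted p = 0.00368). The differences of CDKN1A (-0.02), CDKN1B (0.02), CDKN2A (-0.08) and CDKN2D (-0.03) did not pass, with 95% intervals that all lay between -0.34 and 0.25.

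Genes around CDKN2A and CDKN2B on 9p21 are given for this comparison from a list of 9. Of the 6 that passed the filter in both lines, 4 were called higher in Caki-1 and none lower, where 3700 of all 12864 genes were higher there and 3850 lower. IFNE is among the 6, although its DMSO means lay under the filter level in both lines. It passed only through the dasatinib arrays, so its place in this count is tied to the filter. MTAP, a methionine salvage enzyme next to CDKN2A, averaged 9.93 ± 0.13 in Caki-1 and 8.03 ± 0.08 in 769-P (SD, n = 3 each; difference 1.91 ± 0.10, adjusted p = 2.85e-14). DMRTA1, on the other side of CDKN2B and named after its values were seen, averaged 8.22 ± 0.07 in Caki-1 and 4.64 ± 0.30 in 769-P (SD, n = 3 each). It passed the filter only in Caki-1, where it is high, so its difference is given without a test. CDKN2B was lower in Caki-1, while MTAP was higher there. The antisense transcript CDKN2B-AS1 lay under the filter in both lines (means of 3.75 in Caki-1 and 4.18 in 769-P cells).

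The 3 genes whose pattern was most like each member were taken by Pearson r over 24 arrays, each gene centred in its line, among 12863 genes. All r here share the same arrays and are descriptions. For CDKN3 they were PIMREG (r = 0.996), FAM83D (0.996) and TPX2 (0.994), and for CDKN1C they were ARRDC3 (0.959), HBP1 (0.957) and PJA2 (0.952). CDKN1B was most like GOLPH3L (0.925), STAU2 (0.906) and GEM (0.904), and CDKN1A most like ZNF767P (0.871), GALNT12 (0.847) and POLM (0.839). CDKN2D (VEGFC, 0.775), CDKN2A (GPR50, 0.807) and CDKN2B (FAM91A1, 0.687) had looser companions, and the r of FAM91A1 with CDKN2B was 0.139 within Caki-1. Among the members themselves, CDKN1B and CDKN1C were the most alike pair (0.709) and CDKN1A and CDKN3 the most opposed (-0.625).

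Genes on which the inhibitors act moved with the treatment. Of 12 tested cyclins, CDKs and their activator CDC25A, all 12 fell at 24 h in each line, with a median change of -1.76 in Caki-1 and -2.38 in 769-P. CCNE2, a cyclin of the G1/S transition, fell by 3.71 ± 0.21 in Caki-1 and fell by 3.56 ± 0.11 in 769-P (adjusted p = 1.39e-09 and 7.14e-13). CDK1, the kinase of mitosis, fell by 2.74 ± 0.12 in Caki-1 and fell by 3.58 ± 0.10 in 769-P (adjusted p = 1.48e-10 and 2.82e-13). At 6 h 7 of the 12 had fallen in each line, and at 12 h 10 had fallen in Caki-1 and 9 in 769-P, with 1 gene higher in 769-P at each of these times. Of all genes, 14% fell in Caki-1 and 14.5% in 769-P at 6 h, and 24.4% and 22.6% at 12 h. In 769-P 16.4% of all genes rose at 6 h and 24.9% at 12 h. CDKN3 itself was not called before 24 h.

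Ubiquitin ligase subunits and their partners that act on p21, p27 or p57 fell more often than they rose. At 24 h 8 of 13 fell and 2 rose in Caki-1, and 7 fell and 2 rose in 769-P. Those that fell include PCNA (-2.11 in Caki-1 and -1.94 in 769-P), which is not a ligase subunit. SKP2, which recognises p27 for destruction, fell by 2.37 ± 0.16 in Caki-1 and fell by 1.68 ± 0.11 in 769-P (adjusted p = 6.18e-09 and 3.04e-09). Its cofactor CKS1B fell by 2.53 ± 0.09 in Caki-1 and fell by 2.30 ± 0.07 in 769-P. DTL, which directs p21 to a CUL4 ligase, fell by 3.19 ± 0.14 in Caki-1 and fell by 3.53 ± 0.17 in 769-P. CDC20, an activator of the anaphase-promoting complex, fell by 2.34 ± 0.17 in Caki-1 and fell by 3.06 ± 0.08 in 769-P. These arrays measure RNA and not protein.

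Of the transcriptional regulators known to act on these genes, 9 of 17 rose and 3 fell in Caki-1 at 24 h, and 8 of 18 rose and 4 fell in 769-P. FOXO1, a forkhead factor known to activate CDKN1B, rose by 3.12 ± 0.09 in Caki-1 (adjusted p = 7.47e-12) and by 0.91 ± 0.09 in 769-P (adjusted p = 3.63e-07). HES1, a Notch target that represses transcription, rose by 1.46 ± 0.15 in Caki-1 and by 0.89 ± 0.11 in 769-P. E2F1 fell by 1.504 ± 0.13 in Caki-1 and fell by 1.58 ± 0.21 in 769-P, and EZH2, the Polycomb methyltransferase that silences CDKN2A in many cells, fell by 1.45 ± 0.10 in Caki-1 and fell by 1.27 ± 0.08 in 769-P. KLF4, an activator of CDKN1A, differed by -0.05 ± 0.19 in Caki-1 (adjusted p = 0.843) and fell by 2.14 ± 0.12 in 769-P (adjusted p = 5.4e-10).

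The p53 targets other than CDKN1A moved both ways. At 24 h 7 of 16 rose and 5 fell in Caki-1, and 8 rose and 6 fell in 769-P, with medians of 0.12 and 0.30. TP53INP1 rose by 2.36 ± 0.12 in Caki-1 and by 1.98 ± 0.17 in 769-P, and the stress cytokine GDF15 rose by 1.37 ± 0.12 in Caki-1 and by 1.74 ± 0.12 in 769-P. TIGAR, a regulator of glycolysis, fell by 1.63 ± 0.13 in Caki-1 and fell by 0.81 ± 0.13 in 769-P, and the death receptor FAS fell by 0.16 ± 0.06 in Caki-1 (adjusted p = 0.0459) and fell by 1.76 ± 0.11 in 769-P. Of the RB and E2F family, 10 of 13 fell and 1 rose in Caki-1, and 10 fell and 2 rose in 769-P. E2F8, a repressor among the E2F factors, fell by 3.24 ± 0.21 in Caki-1 and fell by 3.71 ± 0.13 in 769-P. The lists at 24 h stand beside 32.9% of all genes higher and 29.9% lower in Caki-1, and 31.1% higher and 24.6% lower in 769-P.

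The neighbours of CDKN1C on 11p15.5 moved both ways. Of 9 tested, 1 rose and 3 fell at 24 h in Caki-1, where 32.9% of all genes rose and 29.9% fell. In 769-P 1 rose and 2 fell, where 31.1% of all genes rose and 24.6% fell. PHLDA2, an imprinted gene beside CDKN1C that is silenced on the same parental copy, fell by 1.61 ± 0.11 in Caki-1 (adjusted p = 1.23e-08) and fell by 1.63 ± 0.17 in 769-P (adjusted p = 7.22e-07). NAP1L4 fell by 0.67 ± 0.07 in Caki-1, and its difference in 769-P was -0.06 ± 0.07. The noncoding KCNQ1OT1, known to silence CDKN1C on the paternal copy, lay under the filter in both lines.

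On 9p21, 1 of 7 tested neighbours rose and 2 fell in Caki-1 at 24 h, against 32.9% and 29.9% of all genes. In 769-P 2 of 6 rose and 3 fell, against 31.1% and 24.6% of all genes. IFNE, an interferon, is the gene that rose in Caki-1 and is among those that rose in 769-P. It stood above DMSO by 2.34 ± 0.12 in Caki-1 and by 0.94 ± 0.26 in 769-P. Its DMSO means of 5.25 and 4.83 lie under the filter levels. It entered the test only through the dasatinib arrays, where it is high, so its calls are tied to the filter and no p is given. ELAVL2, an RNA-binding protein gene, fell by 2.09 ± 0.14 in Caki-1 and fell by 1.90 ± 0.18 in 769-P, and MTAP fell by 1.01 ± 0.10 in Caki-1, while its difference in 769-P was -0.11 ± 0.10.

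**Figure D5:**
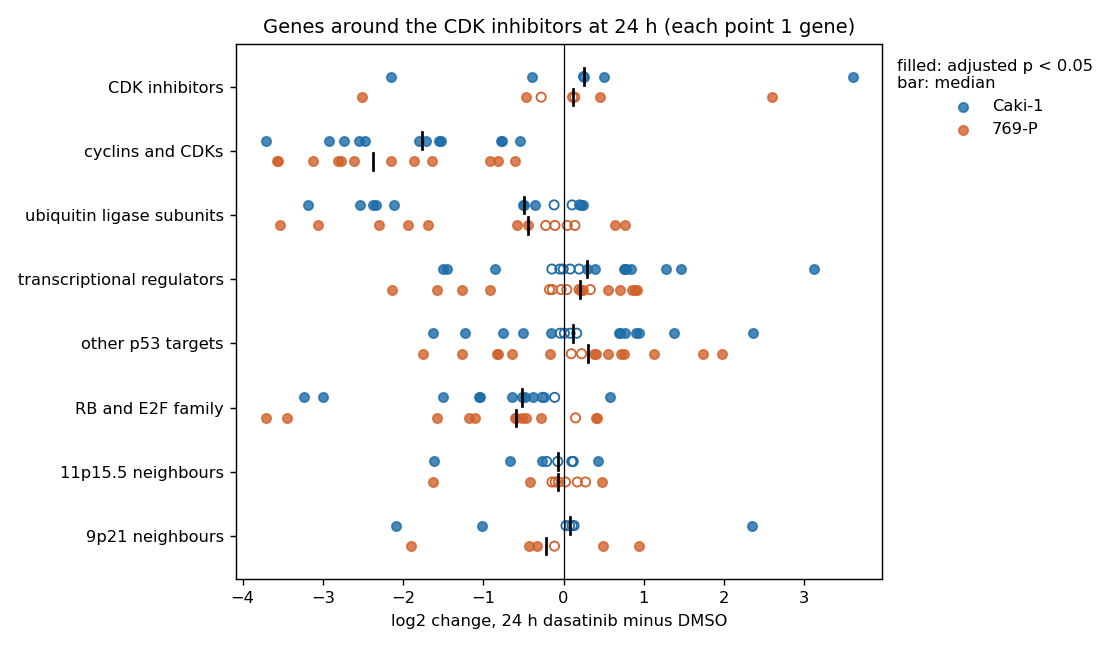
Log2 change at 24 h of dasatinib against DMSO of each tested gene in the CDK inhibitor set and the 7 lists around it, 1 point a gene, in Caki-1 and 769-P (filled, adjusted p under 0.05; black bar, median). The cyclins and CDKs all lie below 0, with medians of -1.76 in Caki-1 and -2.38 in 769-P, while the CDK inhibitors spread from -2.15 to 3.61 in Caki-1 and from -2.51 to 2.60 in 769-P.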

How the data were processed

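Gene expression of 24 arrays was used as the log2 signals that the authors deposited for each probe set. MAS5 is named, with no version, in the submitters' processing notes, and the scaling of arrays is not given in the sources used here. MAS5 was designed for mismatch probes, which PrimeView lacks, and its settings here are unclear. Per the labels' protocols, RNA was extracted with TRIZOL, treated with DNase and amplified from the 3' end. Groups came from the labels alone.

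Of 49395 probe sets, 102 were array controls; 44988 named 1 gene, 1832 several and 2473 had no entry in the platform annotation. Tests used limma 3.58.1 (lmFit, contrasts, eBayes with an intensity trend) under R 4.3.3, with group means over the 12 arrays of a line (8 residual degrees of freedom), or all 24 arrays for differences between lines (16). They ran on 12423 genes in Caki-1, 12354 in 769-P and 12864 over both lines. The step was tested on simulated data. Figures were drawn with matplotlib 3.10.9.

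The members, the gene lists and the rule for named genes (the members, the 3 most alike genes of each, and up to 3 called genes of each list with the largest 24 h change in each line) were chosen with earlier results of these data known. The alternatives were quantile normalization, median centring, no filter, a filter at the 60th percentile, the mean of a gene's probe sets, no trend, a replicate block, 1 fit over 24 arrays and leaving out each array.

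Equal replicate numbers were checked as pairs by correlating deviations from group means. All 3 pairs exceeded 0.1 for 769-P at 6 h (0.10 to 0.34) and 24 h (0.11 to 0.16) against DMSO, for 769-P at 12 h against 6 h (0.15 to 0.28) and 24 h against 12 h (0.16 to 0.18), and in Caki-1 at 12 h against 6 h (0.13 to 0.25). There the block changed no call of a member. In the other comparisons at least 1 pair was lower.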

Additional observations from a re-analysis of the deposited data

Results flagged for a closer look

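Differences between the lines in the response to dasatinib passed limma's test over 24 arrays for 3 of the 7 genes. For CDKN2D the change in Caki-1 minus the change in 769-P was 0.75 ± 0.20 at 6 h (adjusted p = 0.0154), and 0.60 ± 0.20 at 12 h (adjusted p = 0.0323), with Caki-1 changed by 0.21 and 0.06 and 769-P by -0.53 and -0.54. For CDKN1B at 24 h it was 0.39 ± 0.13 (adjusted p = 0.0195), with changes of 0.50 in Caki-1 and 0.11 in 769-P cells. For CDKN3 at 24 h it was 0.36 ± 0.14 (adjusted p = 0.0484), with changes of -2.15 in Caki-1 and -2.51 in 769-P cells. Each of these 4 calls was lost without one of several single arrays, and the CDKN3 call also under 4 other settings.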

How the results depend on the processing

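Of 36 called results of the members, 26 kept their call and direction under each alternative that gave them a value and 10 lost the call under at least 1. These 26 count the calls of CDKN1C, CDKN2B and CDKN3 between the lines under DMSO, for which the replicate block is no check. The CDKN2B call is also tied to the filter. Among the 26, CDKN2D in 769-P at 6, 12 and 24 h has no value with the filter at the 60th percentile, which it did not pass. No called result changed direction: the sign turned 62 times in 25 results, none called in either setting. Turns with the replicate block under DMSO come from how that fit sets its baseline, and the cause of the others was not tested. Under quantile normalization CDKN1A in 769-P at 6 h became 0.012, and CDKN3 at 12 h against 6 h became 0.013 in Caki-1 and 0.0013 in 769-P. With the mean of a gene's probe sets, 24 h against 12 h in 769-P gave -0.036 for CDKN2A and -0.0098 for CDKN2B, and Caki-1 against 769-P under DMSO gave 0.024 for CDKN1A and -0.060 for CDKN1B. In the difference between lines at 12 h 2 members were called with that mean, against 1, and at 24 h 1 was called with median centring, without a filter or without a trend, against 2.

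Equal replicate numbers were also used as a replicate block. The block changed no call within a line. In the difference between lines it called 3 members at 6 h, against 1, adding CDKN1A (adjusted p = 0.0107) and CDKN2B. The CDKN2B call is tied to the filter, since that gene entered the fit only through 769-P, so no p is given. At 24 h the block also called CDKN1C (adjusted p = 0.0315). For the lines under DMSO, the block fit compares them at replicate number 1, each line with its own block. Its values there are shifted by replicate and do not check the main differences. The uncalled differences of CDKN1A (0.13), CDKN2A (0.0087) and CDKN2D (0.042) took the other sign in it.

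With 1 array left out, the members called numbered 0 to 1 in Caki-1 at 12 h against 6 h, 1 to 3 at 24 h against 12 h, and 0 to 2, 0 to 1 and 0 to 3 in the difference between lines at 6, 12 and 24 h. Uncalled changes crossed 0 as follows. In Caki-1 at 6 h against DMSO the ranges were CDKN3 -0.15 to 0.020, CDKN2A -0.062 to 0.074. For Caki-1 at 12 h against DMSO the ranges were CDKN3 -0.17 to 0.012, CDKN2D -0.019 to 0.19. In 769-P at 6 h against DMSO the ranges were CDKN2A -0.049 to 0.13, CDKN1A -0.11 to 0.063. For Caki-1 at 12 h against 6 h the ranges were CDKN3 -0.095 to 0.062. In Caki-1 at 24 h against 12 h the ranges were CDKN1C -0.14 to 0.082, CDKN1A -0.020 to 0.10. For 769-P at 12 h against 6 h the ranges were CDKN2D -0.12 to 0.10, CDKN1B -0.088 to 0.072, CDKN2A -0.026 to 0.13, CDKN3 -0.041 to 0.029. In 769-P at 24 h against 12 h the ranges were CDKN2A -0.040 to 0.092, CDKN2B -0.15 to 0.33, CDKN2D -0.0028 to 0.19. For the difference between lines at 6 h the ranges were CDKN2A -0.14 to 0.044, CDKN1B -0.17 to 0.013. In the difference between lines at 12 h the ranges were CDKN2A -0.10 to 0.069. For the difference between lines at 24 h the ranges were CDKN2D -0.045 to 0.20, CDKN2B -0.10 to 0.38. In Caki-1 against 769-P under DMSO the ranges were CDKN1B -0.070 to 0.11, CDKN2D -0.16 to 0.044, CDKN1A -0.11 to 0.066. The CDKN1B step from 12 to 24 h in Caki-1 also lost its call under quantile normalization (adjusted p = 0.0702), with the mean of probe sets (adjusted p = 0.201) and in 1 fit over 24 arrays (adjusted p = 0.0718). Dim signals limit CDKN2B in Caki-1 and CDKN1C under DMSO in 769-P.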
